A study of Mus musculus with 10 samples.

Results

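The cytochrome P450 genes of families 2 and 3 lie in tandem clusters in the mouse genome. Peaks of histone H3 lysine 27 acetylation (H3K27Ac), a mark of active promoters and enhancers, were described here in 3 windows of the mouse build mm9 around these clusters. The Cyp2c window is chr19:39050000-40270000, the Cyp2b, Cyp2a and Cyp2f window is chr7:26650000-27950000, and the Cyp3a window is chr5:146150000-146950000. Every peak overlapping a window in any of the 9 lists was taken, which gave 896 of the 344928 peaks in all lists. The windows cover 3.32 Mb, or 0.126% of the 2637.9 Mb spanned by peaks on chromosomes 1 to 19, X and Y. They were drawn by position around genes chosen with earlier results of these lists known. Among the sites selected on their high values at 65 °C/5 min and on the lack of a fresh frozen peak were 2 that lie inside them. The excess of such sites is therefore given as a description, with no test. The 7 genes named with the windows are Cyp2c29, Cyp2c70, Cyp2b9, Cyp2b10, Cyp2a5, Cyp2f2 and Cyp3a11.

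All libraries came from full sections of normal mouse liver, with no genotype, treatment, age or sex given in the labels. Formalin-fixed, paraffin-embedded (FFPE) liver was profiled for H3K27Ac with FiTAc-seq, in which the tissue is homogenized with heat and sonicated. A single library each was made at 50 °C with 40 min of sonication, at 50 °C with 5 min, at 65 °C with 40 min and at 80 °C with 40 min, and 2 libraries, called the pair, were made at 65 °C with 5 min. A condition is written below as temperature and sonication time, as in 65 °C/5 min. FiT-seq, another protocol for FFPE tissue, gave 1 library for H3K27Ac and 1 for H3K4me2, a methylation mark of promoters and enhancers. Fresh frozen liver, which the series calls matched, gave 1 H3K27Ac library as the control, and the input DNA was not analysed here. Nothing says that the 2 libraries at 65 °C/5 min were taken from different animals or tissue blocks, and the spread between them may be purely technical. The series was made to choose a homogenization temperature and a sonication time. Read depth is unknown, and the 5 long FiTAc-seq lists held 38409 to 65332 peaks, against 48239 in fresh frozen liver. The 80 °C list held 65 peaks in all and FiT-seq gave 115 for H3K27Ac, none of them in the windows.

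Cytochrome P450 enzymes of families 2 and 3 are haem proteins of the endoplasmic reticulum that oxidise drugs, steroids, fatty acids and bile acids. They are most abundant in hepatocytes, and the nuclear receptors CAR and PXR switch many of them on when foreign compounds reach the liver. The families grew by repeated duplication in rodents, so neighbouring genes can be nearly identical. A short read from such a stretch can align to several places, and how the aligner and the peak caller treated such reads was not given in the sources used here.

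The likeness of the copies is visible in their promoter sequences. In the RefSeq annotation of GRCm38.p6, the clusters hold 18 Cyp2c genes, 16 Cyp2b, Cyp2a, Cyp2f and related genes, and 11 Cyp3a genes. Of these, 4, 4 and 3 are pseudogenes. Other genes start among them, 1, 19 and 12 in the same order, of which 0, 5 and 3 code for proteins. Promoters, taken as 250 bases before to 50 after the gene start, were at hand for 32 of the P450 genes and for all 7 named ones. Cyp2b9, a P450 expressed more in female than in male mouse liver, had the same promoter as its neighbour Cyp2b13 at 298 of 300 bases (99.3%). The longest identical run was 196 bases. These promoters are shown because a read lying within an identical run fits both. Capitals mark the bases that differ. Cyp2b9 is at chr7:26173159-26173458 and Cyp2b13 at chr7:26061245-26061544, both on the plus strand of GRCm38.p6.
Cyp2b9: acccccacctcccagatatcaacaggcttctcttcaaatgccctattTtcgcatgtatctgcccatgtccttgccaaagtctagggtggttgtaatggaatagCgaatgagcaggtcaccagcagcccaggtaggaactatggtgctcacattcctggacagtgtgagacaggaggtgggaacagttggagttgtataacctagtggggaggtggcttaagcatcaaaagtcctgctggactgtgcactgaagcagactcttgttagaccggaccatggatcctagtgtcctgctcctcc
Cyp2b13: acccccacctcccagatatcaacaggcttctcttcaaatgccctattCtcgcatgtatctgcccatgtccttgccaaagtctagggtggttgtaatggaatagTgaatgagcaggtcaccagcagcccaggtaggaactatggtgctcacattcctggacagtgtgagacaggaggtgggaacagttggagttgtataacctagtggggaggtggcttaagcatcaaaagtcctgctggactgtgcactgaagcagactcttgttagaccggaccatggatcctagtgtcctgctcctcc

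Cyp2a5, the coumarin hydroxylase of mouse liver, and Cyp2a4, a steroid hydroxylase, matched at 294 of 299 aligned bases (98.3%), with the sequences offset by 1 base. Their longest identical run was 111 bases. Capitals again mark the bases that differ, including the base of each without a partner, which is the first of Cyp2a4 and the next to last of Cyp2a5. Cyp2a5 is at chr7:26835089-26835388 and Cyp2a4 at chr7:26306942-26307241, both on the plus strand of GRCm38.p6.
Cyp2a5: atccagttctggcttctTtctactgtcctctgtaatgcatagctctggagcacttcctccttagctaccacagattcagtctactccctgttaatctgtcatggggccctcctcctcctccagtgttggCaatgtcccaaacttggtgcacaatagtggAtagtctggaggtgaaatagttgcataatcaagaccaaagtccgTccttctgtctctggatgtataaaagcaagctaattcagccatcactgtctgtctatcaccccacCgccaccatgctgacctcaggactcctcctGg
Cyp2a4: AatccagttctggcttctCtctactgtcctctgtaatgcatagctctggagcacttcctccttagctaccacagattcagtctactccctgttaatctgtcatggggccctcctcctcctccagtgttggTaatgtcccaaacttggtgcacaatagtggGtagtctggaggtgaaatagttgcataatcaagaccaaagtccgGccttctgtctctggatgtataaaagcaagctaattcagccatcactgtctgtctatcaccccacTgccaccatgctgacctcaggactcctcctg

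The other named genes stood further from their closest promoter. Cyp3a11, the main PXR-induced P450 of mouse liver, was 82.9% identical to Cyp3a16. Cyp2c29, a CAR-responsive gene, was 82.6% identical to Cyp2c39. Cyp2b10, the classic CAR target induced by phenobarbital, was 80.1% identical to Cyp2b9. Of the 251 words of 50 bases in each promoter, 153 of Cyp2b9 (61.0%) and 77 of Cyp2a5 (30.7%) also occurred in another gene's promoter. None of the other 5 named promoters shared a word of that length with any promoter in the table. This comparison covers promoters only, since a genome sequence was not used here, and its bearing on any peak was not tested.

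A second feature of these promoters was a shared liver motif. CAAAGTC, the core of a sequence bound by the hepatocyte factor HNF4α, occurred on either strand in 18 of the 32 cluster promoters (56.25%), against 1179 of all 27025 promoters (4.36%). TATAAA was in 18 of the 32 (56.25%), against 14.2% of all. GTTAAT, part of the HNF1 site, was in 5 of the 32 and in 7.2% of all. AGTTCA, a nuclear receptor half-site, was in 6 of the 32 and in 14.0% of all. TTGCGCAA, a C/EBP palindrome, was in none of the 32 and in 0.185% of all. None of these motifs contains another on either strand, and near-identical copies are counted among the 32, so these promoters are not independent. A match describes the letters only, and no peak was placed on these promoters because the builds differ. CAAAGTC was present in 5 of the 7 named genes, shown here with the motif in capitals and 30 bases on each side to show where it stands. The stretches are from GRCm38.p6: Cyp2c29 at chr19:39286946-39287012 on the plus strand, Cyp2c70, which makes the muricholic bile acids of mice, at chr19:40187314-40187380 on the minus strand, Cyp2b9 at chr7:26173203-26173269 on the plus strand, Cyp2a5 at chr7:26835253-26835319 on the plus strand, and Cyp3a11 at chr5:145879927-145879993 on the minus strand.
Cyp2c29: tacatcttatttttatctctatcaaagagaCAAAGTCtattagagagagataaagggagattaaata
Cyp2c70: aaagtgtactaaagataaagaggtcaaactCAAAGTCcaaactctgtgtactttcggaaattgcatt
Cyp2b9: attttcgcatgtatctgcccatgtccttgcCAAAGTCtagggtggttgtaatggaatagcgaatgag
Cyp2a5: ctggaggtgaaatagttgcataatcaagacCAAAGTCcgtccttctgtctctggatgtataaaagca
Cyp3a11: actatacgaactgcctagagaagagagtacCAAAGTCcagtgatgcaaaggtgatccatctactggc

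The windows carried more H3K27Ac peaks in 4 of the 5 long FFPE lists than in fresh frozen liver. The excess lay mainly in the Cyp2b, Cyp2a and Cyp2f window and in the Cyp3a window. No peak was tied to a P450 gene or to another gene. Over all windows, 172 peaks were listed at 50 °C/40 min, 51 at 50 °C/5 min, 181 at 65 °C/40 min, and 231 and 185 in the pair at 65 °C/5 min, against 72 in fresh frozen liver. Of the long FFPE lists, all but that at 50 °C/5 min were thus above fresh frozen liver. The pair averaged 208 ± 32.5 peaks (SD, n = 2), 2.89 times the fresh frozen count. Over all chromosomes the pair held 1.21 times as many peaks as fresh frozen liver.

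The windows differed from one another. In the Cyp2c window the pair had 24 and 21 peaks, against 27 in fresh frozen liver, a ratio of 0.833 for the mean of 22.5 ± 2.12 (SD, n = 2). In the Cyp2b, Cyp2a and Cyp2f window the pair had 106 and 88 peaks, against 26 in fresh frozen liver, a ratio of 3.73 for the mean of 97 ± 12.7. In the Cyp3a window the pair had 101 and 76 peaks, against 19 in fresh frozen liver, a ratio of 4.66 for the mean of 88.5 ± 17.7. The Cyp2c window was thus close to fresh frozen liver in number, and the other windows were well above it. Peak counts depend on how a stretch is divided. With peaks merged within 500 bp, an alternative for these counts chosen after seeing the data, the pair averaged 51.5 and 41 peaks in the Cyp2b, Cyp2a and Cyp2f window and the Cyp3a window, 2.58 and 3.73 times the fresh frozen counts, where the genome gave 1.02.

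The length under peaks depends less on such divisions. In the Cyp3a window it was 6.36% and 5.50% of the window in the pair, 2.72% at 65 °C/40 min, 2.485% at 50 °C/40 min and 0.829% at 50 °C/5 min, against 0.997% in fresh frozen liver. In the rest of the genome the same lists covered 1.67%, 1.52%, 1.31%, 1.38% and 0.651%, against 0.776% in fresh frozen liver. The Cyp3a window of the pair was thus covered 3.80 and 3.62 times as densely as the rest of its own list, where fresh frozen liver gave 1.28. In the Cyp2b, Cyp2a and Cyp2f window the covered length was 3.65% and 3.15% in the pair, 2.59% at 65 °C/40 min, 2.42% at 50 °C/40 min and 0.278% at 50 °C/5 min, against 0.752% in fresh frozen liver. The Cyp2c window held 1.53% and 1.45% in the pair, 1.33% at 65 °C/40 min, 1.29% at 50 °C/40 min and 0.332% at 50 °C/5 min, against 0.861% in fresh frozen liver. Coverage of the Cyp2c window was 0.914 and 0.955 times that of the rest of the genome in the pair and 1.11 times in fresh frozen liver.

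**Figure D1:**
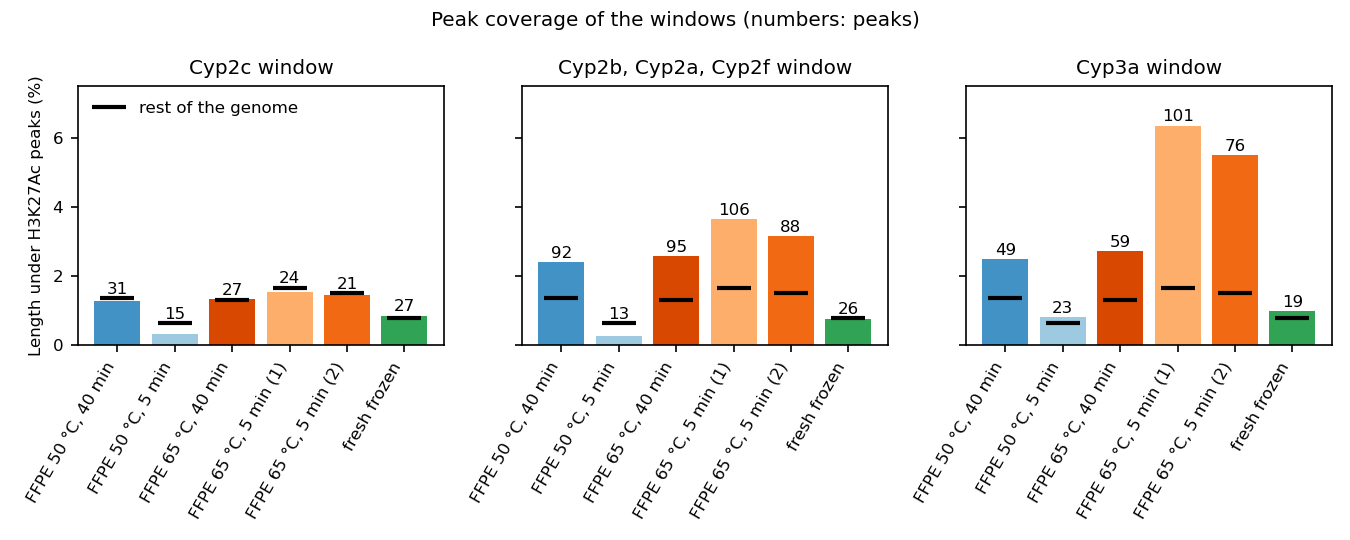
Share of each window's length under peaks (percent, vertical axis) in each list, with 1 bar per library, the number of peaks printed on it and a dash for the rest of the genome in the same list. The pair at 65 °C/5 min reaches 6.36% and 5.50% in the Cyp3a window, against 0.997% in fresh frozen liver.

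Within the Cyp3a window the excess had a place. Cyp3a genes encode the main drug and steroid oxidases of liver and gut. Fresh frozen liver had no peak in chr5:146150000-146690539, a 540.5 kb stretch at the start of the window, and all of its 19 peaks lay in the other 259 kb. The stretch was chosen on the fresh frozen list itself, after seeing the data, so any peak inside it is an excess over that list. The pair had 76 and 61 peaks inside it, against 25 and 15 in the rest of the window. The lists of 40 min had 20 at 50 °C and 28 at 65 °C inside it, and 29 and 31 in the rest. At 50 °C and 5 min, 19 of the 23 peaks lay inside it. The lists of 5 min thus had most of their peaks in the 540.5 kb, and the lists of 40 min had more in the 259 kb. Per Mb, the pair had 140.6 and 112.85 peaks inside the stretch, against 96.4 and 57.8 in the rest. The 50 °C/40 min list had 37.0 inside and 111.8 in the rest, the one at 65 °C/40 min 51.8 and 119.5, and the one at 50 °C/5 min 35.2 and 15.4. In the rest, the first library of the pair was above the 19 fresh frozen peaks and the second below. Covered length showed the same, with 41213 and 37079 bp inside the stretch in the pair, 9334 bp at 65 °C/40 min, 7915 bp at 50 °C/40 min and 5876 bp at 50 °C/5 min. In the 259 kb the values were 9636 and 6927 bp in the pair, 12421 bp at 65 °C/40 min, 11965 bp at 50 °C/40 min and 754 bp at 50 °C/5 min, against 7973 bp in fresh frozen liver.

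The Cyp3a sites named next were chosen as the highest of the pair without a fresh frozen peak, so their height in the pair follows from the choice. Rank 1 is the highest deposited value of a list, read as −log10 of the q-value. Values of different lists depend on depth and background, so each is given with its rank and, where stated, with the percent of the list at or below it. The site chr5:146229090-146230616 had values of 52.0 and 58.1 in the pair (ranks 2930 and 1258), 10.6 at 65 °C/40 min (rank 24687), 8.37 at 50 °C/40 min (rank 33371) and 9.12 at 50 °C/5 min (rank 8101). It stood at 95.1% and 97.8% of the pair's lists, at 61.5% of the 65 °C/40 min list, at 48.9% of the 50 °C/40 min list and at 78.9% of the 50 °C/5 min list. The site chr5:146615219-146617543 had 70.7 and 41.9 in the pair (ranks 1324 and 2916), 10.7 at 65 °C/40 min (rank 23147), 7.86 at 50 °C/40 min (rank 36441) and 7.57 at 50 °C/5 min (rank 10642). The widest, chr5:146394853-146398100, spanned 3248 bp and had 30.6 and 42.5 in the pair (ranks 7049 and 2910), 14.7 at 65 °C/40 min (rank 17241), 15.4 at 50 °C/40 min (rank 18289) and 11.6 at 50 °C/5 min (rank 4892). It held the highest peak of this window at 50 °C/5 min. By percent of the list, all 3 sites stood lower in both lists of 40 min than at 50 °C/5 min, and all lay inside the 540.5 kb. The highest fresh frozen site of the window, chr5:146723701-146724519, had a value of 33.6 and rank 5258 in fresh frozen liver. It had 34.0 at 50 °C/40 min (rank 6476), 4.75 at 50 °C/5 min (rank 23053), 25.1 at 65 °C/40 min (rank 9555), and 18.6 and 17.7 in the pair (ranks 11752 and 10371).

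**Figure D2:**
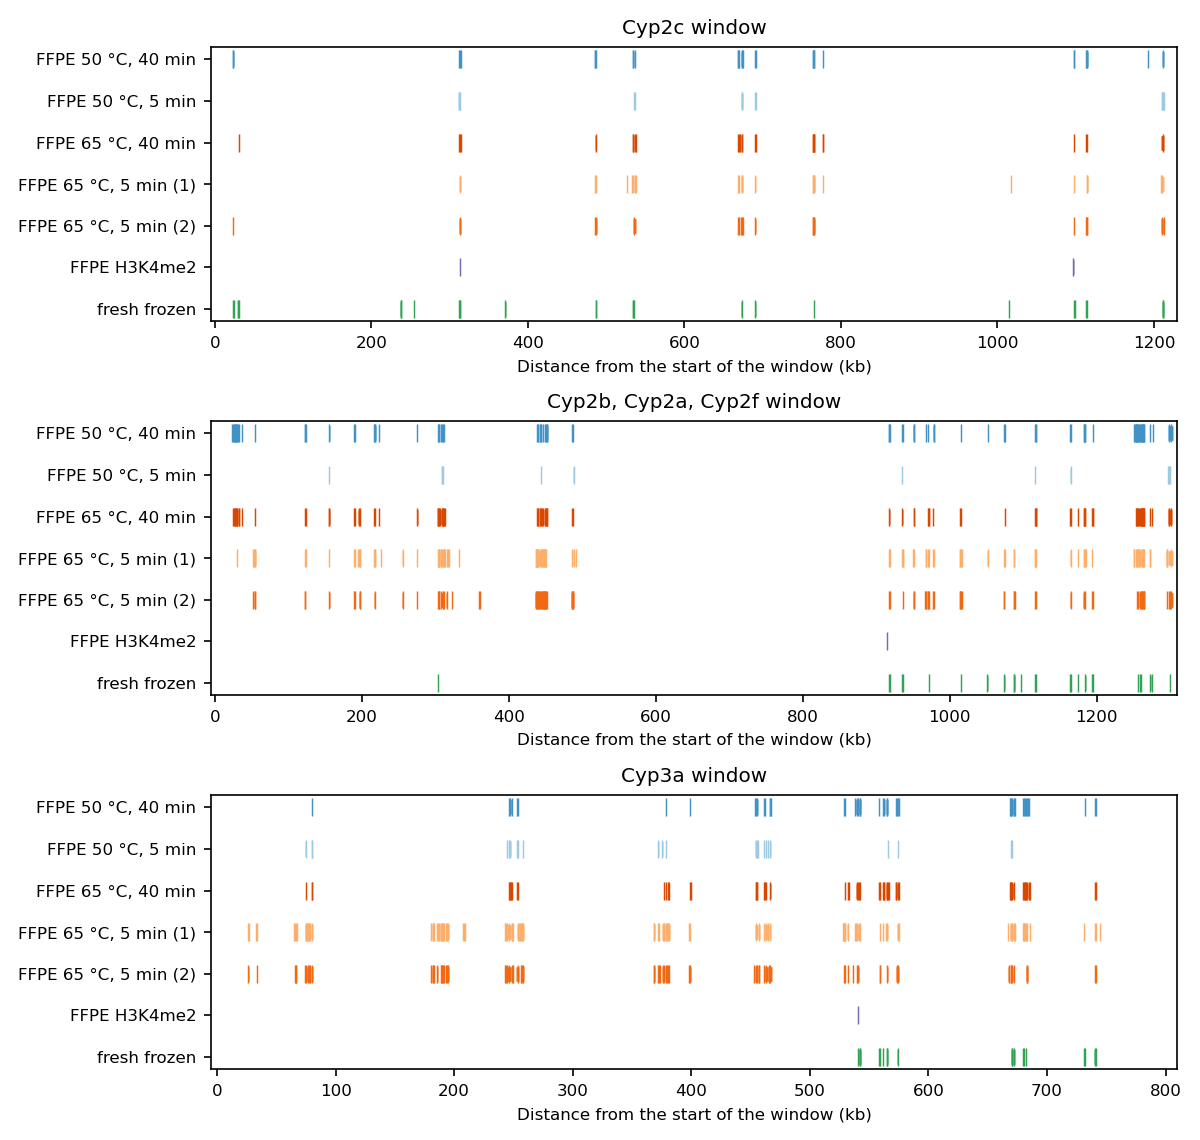
Positions of peaks along each window (distance from the window's start in kb, horizontal axis), with 1 row per list and 1 bar per peak. The long FFPE rows of the Cyp3a window carry peaks over its first 540.5 kb, where the fresh frozen row is empty, and all lists are empty over 423 kb of the Cyp2b, Cyp2a and Cyp2f window.

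The highest single peak overlapping any window lay across the end of the Cyp2b, Cyp2a and Cyp2f window, which also held the longest empty stretch. The genes here include Cyp2f2, which oxidises naphthalene in lung club cells and in hepatocytes, but no peak was placed on a gene. A broad peak at the end of the window, chr7:27947465-27954142 in the first library of the pair, crosses the window's edge. In the pair and in the lists of 40 min, most of this peak's length lies past that edge. It had values of 113 and 89.7 in the pair (ranks 152 and 180), 89.2 at 65 °C/40 min (rank 416), 82.3 at 50 °C/40 min (rank 539) and 21.1 at 50 °C/5 min (rank 677), against 44.3 in fresh frozen liver (rank 2865). The fresh frozen and 50 °C/5 min peaks with these values lie past the window's end and are not counted in it. A peak crossed that edge in each of the 5 long lists and in fresh frozen liver, and no peak crossed any other edge. No list had a peak in chr7:27141669-27564911, a length of 423 kb. The fresh frozen list was empty over 614 kb around it, chr7:26954138-27567839, where the pair had 35 and 31 peaks, with 23 at 65 °C/40 min, 20 at 50 °C/40 min and 5 at 50 °C/5 min. In the rest of this window the counts were 71 and 57 in the pair, 72 in each list of 40 min and 8 at 50 °C/5 min, against 26 in fresh frozen liver. The pair and the lists of 40 min thus exceeded fresh frozen liver in the rest of the window too. Inside the 614 kb, chosen for its lack of fresh frozen peaks, any peak is an excess.

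The highest sites of the pair without a fresh frozen peak lay within that 614 kb. The first, chr7:26958475-26960568, had values of 61.8 and 48.3 in the pair (ranks 1918 and 2114), 29.3 at 65 °C/40 min (rank 7829), 41.2 at 50 °C/40 min (rank 4567) and 4.75 at 50 °C/5 min (rank 23053). The second, chr7:27091930-27094129, had 35.4 and 30.5 in the pair (ranks 5678 and 5188), 7.94 at 65 °C/40 min (rank 32276), 7.86 at 50 °C/40 min (rank 36441) and 8.57 at 50 °C/5 min (rank 8312). The third, chr7:26960697-26961680, adjoins the first and had no peak at 50 °C/5 min. In the second library of the pair the same peak (rank 2114) met both, so the third is not a separate site there. The highest fresh frozen site, chr7:27766823-27767218, had a value of 41.3 and rank 3427, and its FFPE ranks were 18304 at 50 °C/40 min, 17246 at 65 °C/40 min, and 8200 and 12306 in the pair, with no peak at 50 °C/5 min. It was the only one of the 72 fresh frozen window peaks among the 5000 highest of that list of 48239. The pair had 8 of 231 and 8 of 185, from lists of 60244 and 56632 peaks. The lists at 50 °C/40 min and 65 °C/40 min had 5 of 172 and 5 of 181, and that at 50 °C/5 min had 2 of 51. In each of these lists, window peaks were thus among the 5000 highest less often than peaks of the whole list. The pair and the lists of 40 min include the peak over this window's edge, whose highest fresh frozen counterpart lies past that edge.

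The Cyp2c window resembled fresh frozen liver in number of peaks, but the long FFPE lists had another highest site. The highest fresh frozen site also stood high in the pair and in the lists of 40 min. Its highest site in every long FFPE list was at chr19:39585132-39587685, with values of 79.1 and 69.6 in the pair (ranks 940 and 639), 53.8 at 65 °C/40 min (rank 2581), 54.4 at 50 °C/40 min (rank 2477) and 14.4 at 50 °C/5 min (rank 2661). In fresh frozen liver the best peak there had a value of 8.34 and rank 27848. The highest fresh frozen site, chr19:40260515-40261761, had a value of 29.9 and rank 6473 there, and ranked 1447 and 1985 in the pair, 4715 at 65 °C/40 min, 3670 at 50 °C/40 min and 17696 at 50 °C/5 min. The highest sites of the pair without a fresh frozen peak stood lower in the pair's lists than those of the other windows. The first, chr19:39814364-39814662, had values of 8.99 and 14.6 in the pair, at 61.6% and 77.0% of its lists. The longest stretch without a peak in any list was 237 kb, chr19:39827391-40064359.

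**Figure D3:**
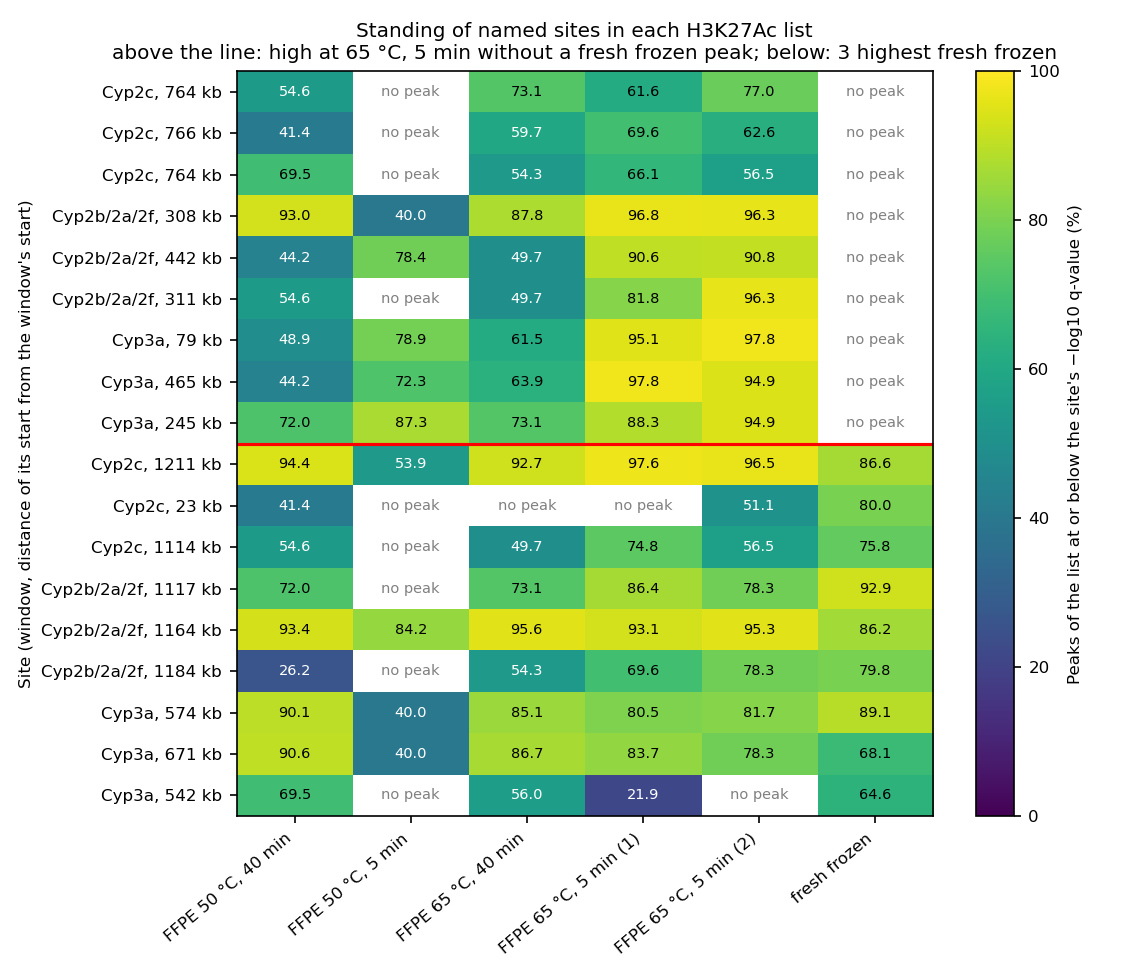
Standing of 18 sites in each H3K27Ac list, as the percent of the list's peaks at or below the site's −log10 q-value. Sites above the line were selected as the highest of the 65 °C/5 min pair without a fresh frozen peak, and those below as the 3 highest fresh frozen sites of each window, so the empty fresh frozen column above the line follows from the choice. The Cyp3a site at 79 kb stands at 95.1% and 97.8% in the pair, 61.5% at 65 °C/40 min, 48.9% at 50 °C/40 min and 78.9% at 50 °C/5 min. The sites at 308 and 311 kb of the Cyp2b, Cyp2a and Cyp2f window met the same peak in the second library of the pair.

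Over all windows together, fresh frozen sites were found again in FFPE liver about as often as those of the genome, except at 50 °C/5 min. Of the 72 fresh frozen peaks, 47 (65.3%) met a peak at 50 °C/40 min, where 73.2% of all fresh frozen peaks of the genome did. At 50 °C and 5 min it was 14 (19.4%), where the genome gave 43.7%. At 65 °C and 40 min it was 51 (70.8%), where the genome gave 72%. In the pair it was 50 (69.4%) and 46 (63.9%), where the genome gave 73% and 70.2%. The Wilson 95% interval was 53.8 to 75.2 at 50 °C/40 min, 59.5 to 80.1 at 65 °C/40 min, and 58.0 to 78.9 and 52.4 to 74.0 in the pair, and it covers counting error only. The mean of the pair was 66.7% ± 3.93 (SD, n = 2). With a minimum deposited value of 5, the share at 50 °C/5 min was 6.56%, and with the midpoint required within the other peak it was 8.33%. Merging peaks within 500 bp gave 22.9%, and widening each window by 100 kb gave 29.4%, nearer to the genome. By window, the pair met 14 and 16 of 27 Cyp2c peaks, 22 and 19 of 26 Cyp2b, Cyp2a and Cyp2f peaks, and 14 and 11 of 19 Cyp3a peaks. The lists at 50 °C/40 min and 65 °C/40 min met 55.6% and 59.3% of the Cyp2c peaks, below the genome's shares. They met 61.5% and 69.2% of the Cyp2b, Cyp2a and Cyp2f peaks. Of the Cyp3a peaks they met 84.2% and 89.5%, above the genome's shares. These shares rest on few peaks.

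Few fresh frozen sites of the windows were in all 5 long lists. There were 12 (16.7%), where the genome gave 41.1%, and 10 (13.9%) were in none, where the genome gave 16.6%. Of those 10, 8 were Cyp2c sites, 2 lay in the Cyp2b, Cyp2a and Cyp2f window, and none was a Cyp3a site. The highest of them was chr19:39420804-39421390, with a value of 13.2 and rank 18156 in fresh frozen liver. The count in all 5 lists cannot exceed the 14 that the 50 °C/5 min list met.

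**Figure D4:**
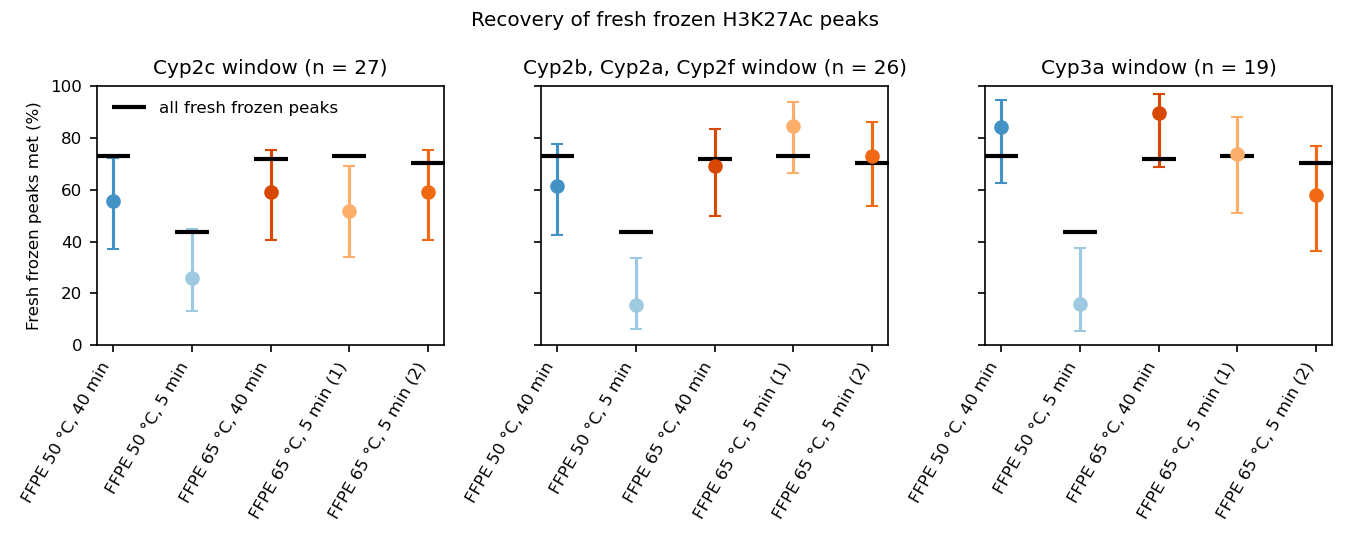
Share of the fresh frozen peaks of each window met by a peak of each FFPE list (percent, points), with Wilson 95% intervals that cover counting error only and a dash for the share of all fresh frozen peaks in the same list. The 50 °C/5 min list meets 25.9% of the Cyp2c peaks, 15.4% of the Cyp2b, Cyp2a and Cyp2f peaks and 15.8% of the Cyp3a peaks, below the other lists in each window.

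In the other direction, most FFPE peaks of the windows met no fresh frozen peak. The share was 124 of 172 (72.1%) at 50 °C/40 min, where 50.6% of all peaks of that list met none. It was 32 of 51 (62.7%) at 50 °C/5 min, against 44.3% in the genome, and 128 of 181 (70.7%) at 65 °C/40 min, against 50.4%. In the pair it was 184 of 231 (79.7%) and 144 of 185 (77.8%), against 55.7% and 53.6% in the genome. All 5 shares in the windows were thus above those of the genome. The windows were chosen knowing of such sites, so no test was made. In the Cyp2c window the pair had 54.2% and 38.1%, close to or below the genome's share, in the Cyp2b, Cyp2a and Cyp2f window 80.2% and 80.7%, and in the Cyp3a window 85.1% and 85.5%.

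Many of these peaks were found in both libraries of the pair. Of the 231 peaks of the first library, 159 (68.8%) met a peak of the second, near the genome's 67.5%. Of these 159, 124 (78.0%) met no fresh frozen peak, where the genome gave 42.4%. They numbered 7 of 18 in the Cyp2c window, 57 of 73 in the Cyp2b, Cyp2a and Cyp2f window and 60 of 68 in the Cyp3a window. They lay further from fresh frozen peaks than such peaks of the genome did. Within 5000 bp of a fresh frozen peak lay 30 of the 124 (24.2%), where 81.3% of such peaks of the genome did. This held for 7 of 7 in the Cyp2c window, 19 of 57 in the Cyp2b, Cyp2a and Cyp2f window and 4 of 60 in the Cyp3a window. Of the 109 sites joined over the 6 lists in the Cyp3a window, 33 (30.3%) were in both libraries of the pair and in no other list, where the genome gave 3.15%. The counts were 16 of 133 in the Cyp2b, Cyp2a and Cyp2f window and 0 of 36 in the Cyp2c window. The bearing of read mapping among duplicated genes on these peaks was not tested.

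Sonication time was compared at both temperatures. At 50 °C, recovery of the 72 fresh frozen peaks was 45.8 percentage points higher after 40 min (65.3%) than after 5 min (19.4%), where the genome differed by 29.5 points. Covered length in the Cyp2b, Cyp2a and Cyp2f window was 31422 bp after 40 min and 3614 bp after 5 min, 8.69 times as much, where the genome gave 2.12. At 65 °C, recovery over all windows differed by 4.17 points between 40 min and the mean of the 5 min pair, close to the pair's SD of 3.93. This difference was 6.94 points without the first library of the pair and 1.39 points without the second. It was 12.3 points with a minimum deposited value of 5 and 8.33 with the midpoint rule. Merging within 500 bp gave 2.08, and windows widened by 100 kb gave 1.47. The windows went different ways. Recovery after 40 min was 23.7 points above the pair's mean in the Cyp3a window (pair SD 11.2). In the Cyp2b, Cyp2a and Cyp2f window the difference was -9.62 points (pair SD 8.16), and in the Cyp2c window 3.70 (pair SD 5.24). Covered length in the Cyp3a window was 21755 bp after 40 min and 47427.5 ± 4839 bp (SD, n = 2) after 5 min, 0.459 times as much, where the genome gave 0.821. Peaks in this window numbered 59 after 40 min, and 101 and 76 after 5 min. In the Cyp2b, Cyp2a and Cyp2f window the covered length was 33701 bp after 40 min and 44196.5 ± 4624 bp after 5 min. In the Cyp2c window it was 16233 bp after 40 min and 18186 ± 648 bp after 5 min. Longer sonication thus went with more coverage at 50 °C in all 3 windows and with less at 65 °C, and each list of 40 min was 1 library.

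Heating at 65 °C was set against 50 °C for either sonication time. With 5 min of sonication, recovery was 47.2 points higher at 65 °C than at 50 °C, where the genome differed by 27.9 points. Covered length at 5 min was 7.15 times as much at 65 °C as at 50 °C in the Cyp3a window, 12.2 times in the Cyp2b, Cyp2a and Cyp2f window and 4.49 times in the Cyp2c window, where the genome gave 2.46. At 40 min the temperatures differed less than at 5 min. Recovery was 70.8% at 65 °C and 65.3% at 50 °C. The difference was 5.56 points, above the SD of 3.93 of the pair at 5 min, where the genome differed by -1.14 points. The peak counts differed by -4 in the Cyp2c window, 3 in the Cyp2b, Cyp2a and Cyp2f window and 10 in the Cyp3a window. Over the genome they differed by -1186. Covered length at 40 min differed by 483 bp in the Cyp2c window, 2279 bp in the Cyp2b, Cyp2a and Cyp2f window and 1875 bp in the Cyp3a window. Over the genome it differed by -1712730 bp. Each list of 40 min was 1 library. At 80 °C and 40 min no peak was listed in any window, but that list held 65 peaks in all.

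H3K4me2 peaks were sparse in the windows. FiT-seq gave 4 H3K4me2 peaks in the windows, 1.20 per Mb, against 4.46 per Mb in the rest of the genome. Of these, 2 overlapped H3K27Ac in the fresh frozen list or any of the long FiTAc-seq lists, where 84.8% of all H3K4me2 peaks did. The highest, chr7:27564912-27565130, had a value of 23.0 and rank 125 and no H3K27Ac peak in any list. Its start sets the end of the 423 kb without peaks, which was defined over all lists. The Cyp3a site chr5:146690570-146690748 (rank 10667) met a peak in fresh frozen liver and in all long FiTAc-seq lists but that at 50 °C/5 min. The site chr19:39363118-39363350 (rank 9771) met a peak in fresh frozen liver, at 50 °C/5 min and in both libraries of the pair, and chr19:40147127-40147287 (rank 6730) met none. The share rests on 4 peaks and on the window edges: with each window widened by 100 kb it was 81.8%, close to that of the genome, and with a minimum deposited value of 5 it was 0%.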

How the data were processed

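H3K27Ac and H3K4me2 were measured by ChIP-seq in mouse liver. Per the submitters' processing notes, BWA aligned the reads and MACS2 called the peaks, on mm9; versions, thresholds and any control library are not given in the sources used here. Each library has its own list as deposited by the authors, with no pooling. The score column that the authors deposited was taken to be −log10 q-values from the form of its numbers, and was used only to rank or filter peaks within a list. Per the labels' protocols 2 library kits were in use, without a statement of which library had which.

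Samples were grouped by title. Only chromosomes 1 to 19, X and Y were used, and starts are 1-based. Peaks overlapping by at least 1 bp were counted as shared, ties shared the best rank, and shares carry Wilson 95% intervals. Spread between libraries was taken from the 2 libraries at 65 °C/5 min, and no p-value was computed. For each window, the sites named were the highest peak of every list, the 3 highest fresh frozen peaks, the 3 highest in no long FiTAc-seq list, the 3 highest of the pair without a fresh frozen peak, and every H3K4me2 peak. The longest stretches without a peak in any list were also named, and the stretches without a fresh frozen peak were chosen after seeing the data. The windows, genes, lists and motifs were chosen with earlier results of these data known. No mm9 gene models were used here, so peaks carry no gene names, and the planned marker and pathway genes were not placed. The overlap step was tested on simulated lists. Promoters came from RefSeq on GRCm38.p6. Alternatives covered a minimum value of 5, an overlap of 50% of the shorter peak, midpoints, merging within 500 bp and closing gaps of up to 76 bp. They also covered windows narrowed or widened by 100 kb at each end, and dropping each library of the pair in turn. Software was Biopython 1.88, matplotlib 3.10.9, scipy 1.17.1, pandas 2.3.3 and numpy 2.4.6 under Python 3.11.15.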

Additional observations from a re-analysis of the deposited data

Results flagged for a closer look

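The difference between 40 and 5 min of sonication ran in opposite directions at 50 °C and 65 °C for 4 measures of the windows. Covered length after 40 min was 11696 bp above 5 min at 50 °C in the Cyp2c window and differed by -1953 bp from the mean of the pair at 65 °C. In the Cyp2b, Cyp2a and Cyp2f window the differences in covered length were 27808 bp at 50 °C and -10495.5 bp at 65 °C. In the Cyp3a window they were 13250 bp at 50 °C and -25672.5 bp at 65 °C, and the differences in the number of peaks were 26 and -29.5. Covered length over the whole genome showed the same directions, with 19150421 bp at 50 °C and -7568340 bp at 65 °C. These differences between temperatures were not tested, since only 65 °C with 5 min had 2 libraries.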

How the results depend on the processing

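Of 83 alternatives computed, 67 stayed within the spread, 16 moved beyond it and 0 reversed. The spread was the pair's SD for its recovery, for the differences and for covered shares, and the Wilson interval for all other shares. The Wilson interval of the H3K4me2 share ran from 15.0 to 85.0%, so 81.8% counted as within it. Reversal could be called only for differences in recovery, between sonication times at either temperature and between temperatures at 5 min. All 25 alternatives of these differences, taken over all windows together, kept their direction. Differences in covered length were not rerun. With a minimum deposited value of 5, recovery was 6.56% at 50 °C/5 min and 58.2% in the pair, the differences for 40 minus 5 min were 55.7 points at 50 °C and 12.3 at 65 °C, that for 65 minus 50 °C at 5 min was 51.6, and 0% of H3K4me2 peaks met H3K27Ac, a share of 81.8% with windows widened by 100 kb. With the midpoint within the other peak, recovery was 8.33% at 50 °C/5 min and 54.2% in the pair, and 40 minus 5 min at 65 °C was 8.33 points. An overlap of 50% of the shorter peak gave 61.1% in the pair. Merging within 500 bp gave a recovery of 72.9%, a covered share of 4.03% and a share of shared pair peaks without fresh frozen of 63.8%. Windows widened by 100 kb gave a covered share of 3.63% in the pair, and differences of 37.3 points for sonication at 50 °C and 40.7 for temperature. Leaving out either library of the pair gave recovery of 63.9% to 69.4%, 1.39 to 6.94 points for sonication at 65 °C, 44.4 to 50 points for temperature and a covered share of 3.09% to 3.52%. The causes were not tested. Depth is unknown and limits weak sites. No paired analysis was possible because only the 65 °C/5 min group has 2 numbered libraries.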
